A study of Homo sapiens with 6 samples.

Results

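The mitochondrial genome supplies its own mRNAs, tRNAs and rRNAs, and the transcripts described here are all 37 genes of the deposited gene table whose symbol starts with MT-, out of 59609 genes listed. They comprise 13 mRNAs, 22 tRNAs and 2 rRNAs, and they were taken by symbol alone. The cells were wild-type, untreated forebrain cells differentiated from H9, an established human embryonic stem cell line, and collected at day 26. One label calls them forebrain neurons and another neuron progenitor cells. After depletion of ribosomal RNA, libraries were made from the cytoplasm, from the nucleus and from whole cells, with 2 replicates of each and 6 in all. The question was where each RNA lies in the cell. All groups came from a single cell line, and nothing in the labels tells whether replicates were separate cultures. The p-values thus reflect library-to-library spread, largely pooled over genes and possibly technical, and no more.

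The mitochondrial genome is a small circle that is transcribed from both strands into long precursors. The tRNAs stand between most of the other genes, and their excision at both ends by RNase P and ELAC2 releases the mRNAs and rRNAs. Most genes are read from one precursor, called here the heavy-strand transcript, while MT-ND6 and a minority of the tRNAs are read from the other, the light-strand transcript, whose remaining length is noncoding. Mitochondria lie outside the nucleus, and neurons depend on the respiratory chain that the mRNAs encode.

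Levels are FPKM, fragments scaled to gene length and library size. The tRNA genes are 59 to 75 bases long, so few fragments give them a high FPKM. In the cytoplasm tRNAs took 0.921% of the mitochondrial fragments but 13.8% of the summed mitochondrial FPKM. How far tRNA and mRNA levels can be set side by side was not tested. The step of 1 fragment in the values gave 38.7 M and 45.7 M fragments for the cytoplasmic libraries, 120 M and 112 M for the nuclear libraries and 34.9 M and 37.4 M for the total-cell libraries. Of these, 22.7% and 24.5% lay in matched genes in the nuclear libraries and 58.5% to 66.3% in the other 4. FPKM thus places genes as a whole lower in the nuclear libraries. The median log2 fold change of all 13431 tested genes, cytoplasm over nucleus, was 0.78 as deposited, 0.00 after libraries were scaled to one median and -0.09 after scaling to the fragments in genes. Not every control followed its label. GAPDH, a cytosolic enzyme mRNA, stood at 545 and 480 FPKM in cytoplasmic and 107 and 121 FPKM in nuclear libraries. RN7SL1 and RN7SL2, taken as cytoplasmic RNAs, had means of 94909 against 55773 FPKM and 50340 against 30266 FPKM. RN7SK, a nuclear RNA, stood at 72498 and 72426 FPKM in cytoplasmic libraries against 15599.6 and 14237 FPKM in nuclear ones. Other nuclear RNAs also had higher cytoplasmic than nuclear means: NEAT1 (0.53 against 0.41 FPKM), RNU5A-1 (15.0 against 14.1) and RNU6ATAC (7.30 against 5.08). RNU2-2P (293 against 314), RNU4-2 (112 against 127) and KCNQ1OT1 (0.02 against 0.04) had higher nuclear means. All these control values are as deposited, not scaled for the higher cytoplasmic level of the median gene, so small cytoplasmic excesses say little. MALAT1, a nuclear lncRNA, followed its label, at 34.6 and 34.5 FPKM in cytoplasmic and 63.4 and 77.4 FPKM in nuclear libraries. It measured 668 and 838 FPKM in the total-cell libraries, so the fractions did not bracket the whole cell. All 12 forebrain markers reached a mean of 1 FPKM in each group. Of 16 markers of other cell types 4 did in the cytoplasm and 3 in the other groups. The mesenchymal markers COL1A1 (8.05, 7.70 and 5.99 FPKM in cytoplasm, nucleus and total cell), COL1A2 (4.31, 4.56 and 4.24) and LUM (1.48, 1.68 and 2.35) did so in every group. OLIG1, of the oligodendrocyte lineage, did in the cytoplasm (1.33). The 16 markers summed to 12.99 to 16.2 FPKM over the 6 libraries, and HOXA5 was at 0 in 5 libraries.

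All 37 mitochondrial transcripts were higher in the cytoplasm than in the nucleus (limma, adjusted p below 0.05), and in each of them both cytoplasmic libraries lay above both nuclear ones. Of all tested genes 83.9% were called higher and 3.07% lower in this comparison, and 88.5% did not overlap in that direction and 4.89% in the other, so the direction itself was that of most genes. The size was not: the members' median log2 fold change was 2.70 against 0.78 over all genes. The latter moved with the pseudocount, being 1.14 at 0.1 FPKM and 0.20 at 10 FPKM, where the members' median was 2.78 and 2.52, so the gap also holds the shrinkage of genes with low levels. It was 1.93 against 0.00 after median scaling, with 37 members called higher, and 1.41 against -0.09 after scaling to the fragments in genes, with 33 called higher and none lower. Under median scaling 5147 of all tested genes were called higher and 4866 lower, against 11265 and 412 as deposited. Scaling to the fragments in genes gave 3554 higher and 5114 lower. A fit on the cytoplasmic and nuclear libraries alone, without the total-cell libraries, also called 37 members higher. The gap between medians does not make the size particular to the members. SLIRP, a nuclear gene, had a log2 fold change of 2.15, where MT-RNR2 had 2.001 and MT-ND5 2.21. ACTB and EEF1A1 had means of 1473 against 313 FPKM and 345 against 77.7 FPKM. The nuclear-encoded lists described below had lower medians, of 0.69 and 0.84.

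**Figure D1:**
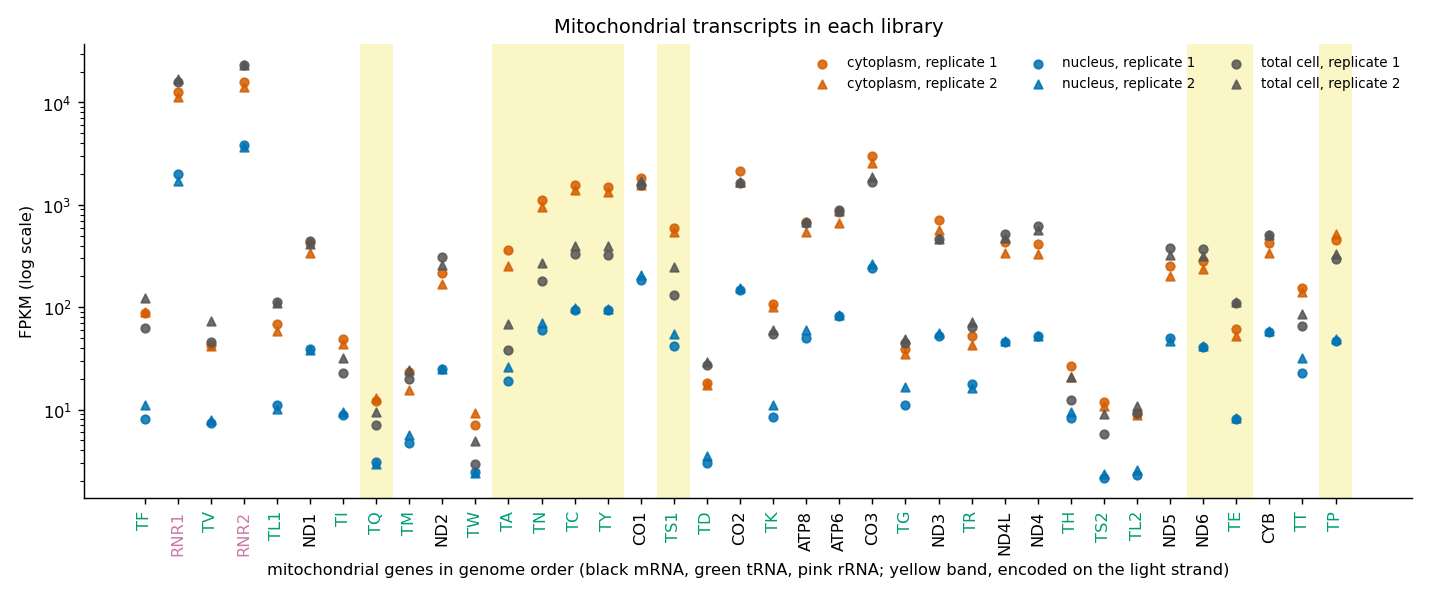
FPKM (log axis) of the 37 mitochondrial genes in genome order, 1 point per library, with circles for replicate 1 and triangles for replicate 2; yellow bands mark genes of the light-strand transcript. The nuclear points are the lowest for every gene, and the run of tRNAs from MT-TA to MT-TY stands between 251 and 1551 FPKM in the cytoplasm.

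As a share of the fragments in genes, the 37 transcripts took 7.49% ± 0.585 (SD, n = 2) in the cytoplasm, 3.68% ± 0.352 in the nucleus and 9.82% ± 0.718 in total-cell RNA. Their classes were not present in the same proportions. Of the summed mitochondrial FPKM, rRNAs took 62.1% ± 0.840 in the cytoplasm, 77.6% ± 2.01 in the nucleus and 76.3% ± 0.243 in total-cell RNA. The mRNAs took 24.1% ± 1.07, 15.2% ± 1.16 and 19.4% ± 0.426, and the tRNAs took 13.8% ± 0.228, 7.15% ± 0.849 and 4.33% ± 0.669, in the same order. The cytoplasmic and nuclear libraries did not overlap in any of the 3 shares, with an exact two-sided permutation p of 0.33, the smallest that 2 libraries against 2 allow. In bulk RNA, fewer mitochondria in a fraction and less RNA per mitochondrion cannot be told apart.

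**Figure D2:**
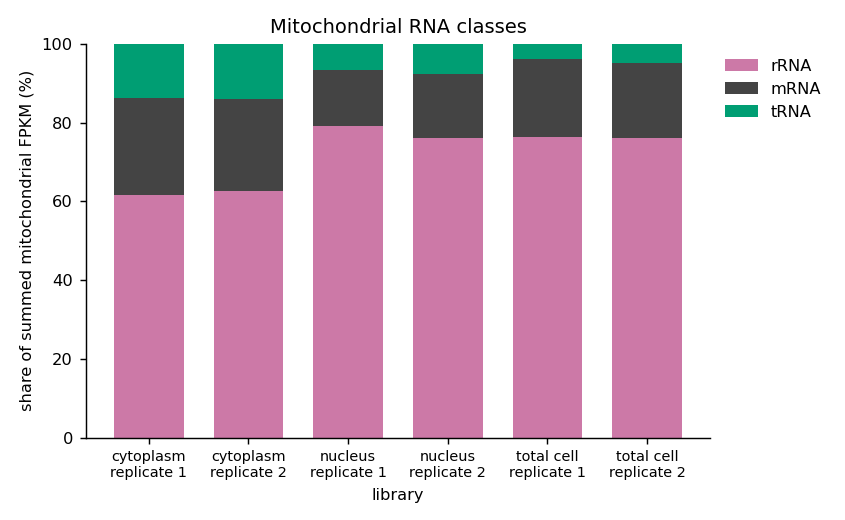
Share of the summed FPKM of the 37 mitochondrial genes (%) taken by rRNAs, mRNAs and tRNAs, 1 stacked bar per library. The tRNA share is 13.6% and 13.9% in the cytoplasmic libraries and at most 7.75% in the other 4.

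The tRNAs spanned the widest range of levels and held both the largest and the smallest cytoplasmic excess among the 37 members. Of the 8 light-strand tRNAs 4, MT-TA, MT-TN, MT-TC and MT-TY, formed one run of 305 bases on chromosome M between MT-ND2 and MT-CO1. They carry alanine, asparagine, cysteine and tyrosine. This run contributed 70.1% ± 1.76 (SD, n = 2) of the summed tRNA FPKM in the cytoplasm, 54.2% ± 1.08 in the nucleus and 44.6% ± 0.170 in total-cell RNA. The sequences of the run and of the other light-strand tRNAs are shown because the strand contrast rests on them; they are the annotated RNAs read from GENCODE v29 transcripts (GRCh38), 5′ to 3′ with T for U, and the capitals mark the anticodon.
MT-TA, chrM:5587-5655, minus strand: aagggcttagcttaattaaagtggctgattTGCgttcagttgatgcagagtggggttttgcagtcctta
MT-TN, chrM:5657-5729, minus strand: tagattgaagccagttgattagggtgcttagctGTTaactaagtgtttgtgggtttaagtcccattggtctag
MT-TC, chrM:5761-5826, minus strand: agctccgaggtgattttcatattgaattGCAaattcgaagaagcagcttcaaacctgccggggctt
MT-TY, chrM:5826-5891, minus strand: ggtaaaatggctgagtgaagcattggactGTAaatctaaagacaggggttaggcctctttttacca
MT-TS1, chrM:7446-7514, minus strand: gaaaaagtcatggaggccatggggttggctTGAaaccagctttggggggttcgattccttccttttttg
MT-TP, chrM:15956-16023, minus strand: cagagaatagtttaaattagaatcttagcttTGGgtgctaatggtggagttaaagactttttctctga
MT-TE, chrM:14674-14742, minus strand: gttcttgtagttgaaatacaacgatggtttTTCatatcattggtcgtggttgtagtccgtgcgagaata
MT-TQ, chrM:4329-4400, minus strand: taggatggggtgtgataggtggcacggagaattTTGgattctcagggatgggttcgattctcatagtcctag
The 8 share a base composition: guanine made up 23.5% to 36.1% of their bases, against 10.3% to 19.1% in the 14 heavy-strand tRNAs.

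MT-TN had the largest cytoplasmic excess of all 37 members. It measured 1116 and 943 FPKM in the cytoplasmic libraries, 59.2 and 70.7 FPKM in the nuclear libraries and 181 and 268 FPKM in the total-cell libraries. Both cytoplasmic libraries lay far above the other 4. Its log2 fold change, cytoplasm over nucleus, was 3.97 ± 0.18 (limma SE, adjusted p = 8.5e-14, and 0.0039 with its own spread). MT-TC, the tRNA with the highest mean level, measured 1551 and 1393 FPKM, 94.0 and 98.4 FPKM and 331 and 398 FPKM in the same order. Its values in every library were close to those of MT-TY, with which it shares 1 base at its end, at 1507 and 1326 FPKM, 93.7 and 96.9 FPKM and 324 and 400 FPKM. The log2 fold changes of MT-TC and MT-TY were 3.92 and 3.88. MT-TA was the lowest of the run at 361 and 251 FPKM in cytoplasmic libraries, 19.1 and 25.8 FPKM in nuclear ones and 38.3 and 68.7 FPKM in total-cell RNA, with a log2 fold change of 3.70.

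The remaining light-strand tRNAs lay further along the circle. MT-TS1, a serine tRNA that adjoins the end of MT-CO1 on the other strand, measured 588 and 545 FPKM in cytoplasmic libraries, 42.1 and 54.9 FPKM in nuclear ones and 133 and 246 FPKM in total-cell RNA. MT-TP, the proline tRNA nearest the light-strand promoter, measured 457 and 521 FPKM, 47.0 and 48.6 FPKM and 293 and 330 FPKM. These RNAs shared with the run an order of cytoplasm above total cell above nucleus, without overlap. MT-TE, the glutamate tRNA beside MT-ND6, had another order, at 61.6 and 52.2 FPKM in cytoplasmic libraries, 8.11 and 8.28 FPKM in nuclear ones and 111 and 113 FPKM in total-cell RNA, where it was highest.

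MT-TQ, for glutamine, overlaps the isoleucine tRNA MT-TI by 3 bases on opposite strands, and this pair is the case in which the annotated strands collide. MT-TQ was the lowest light-strand tRNA, at 12.001 and 12.9 FPKM in cytoplasmic libraries, 3.05 and 2.93 FPKM in nuclear ones and 7.02 and 9.43 FPKM in total-cell RNA. MT-TI measured 49.3 and 43.8 FPKM, 8.82 and 9.39 FPKM and 22.9 and 31.9 FPKM. Both ran in the order cytoplasm, total cell, nucleus, with log2 fold changes of 1.75 and 2.23 between cytoplasm and nucleus.

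Heavy-strand tRNAs were lower as a class. The median level of the 8 light-strand tRNAs was 13.3 ± 0.841 (SD, n = 2) times that of the 14 heavy-strand tRNAs in the cytoplasm, 5.48 ± 0.0150 times in the nucleus and 5.34 ± 1.42 times in total-cell RNA (cytoplasm against nucleus, exact permutation p = 0.33, the smallest possible). The median log2 fold change, cytoplasm over nucleus, was 3.62 for the light-strand and 2.03 for the heavy-strand tRNAs. At the lower end stood MT-TH, for histidine, at 26.4 and 20.9 FPKM in cytoplasmic libraries, 8.21 and 9.53 FPKM in nuclear ones and 12.3 and 21.0 FPKM in total-cell RNA, with a log2 fold change of 1.32 ± 0.17. MT-TW, for tryptophan, had the lowest mean level, at 7.12 and 9.28 FPKM, 2.45 and 2.42 FPKM and 2.92 and 4.94 FPKM. Only 6.92 to 28.8 fragments per library lay behind MT-TW, so its total-cell value in particular is imprecise. MT-TH, MT-TW, MT-TG and MT-TR, for histidine, tryptophan, glycine and arginine, were the 4 members not called after scaling to the fragments in genes, with log2 fold changes of 0.07, 0.35, 0.13 and 0.12. The highest heavy-strand excesses were those of MT-TK, for lysine, at 3.28 and MT-TF, for phenylalanine, at 3.11. Whether a fragment came from a mature tRNA or from an uncut precursor cannot be told apart in gene-level values.

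**Figure D3:**
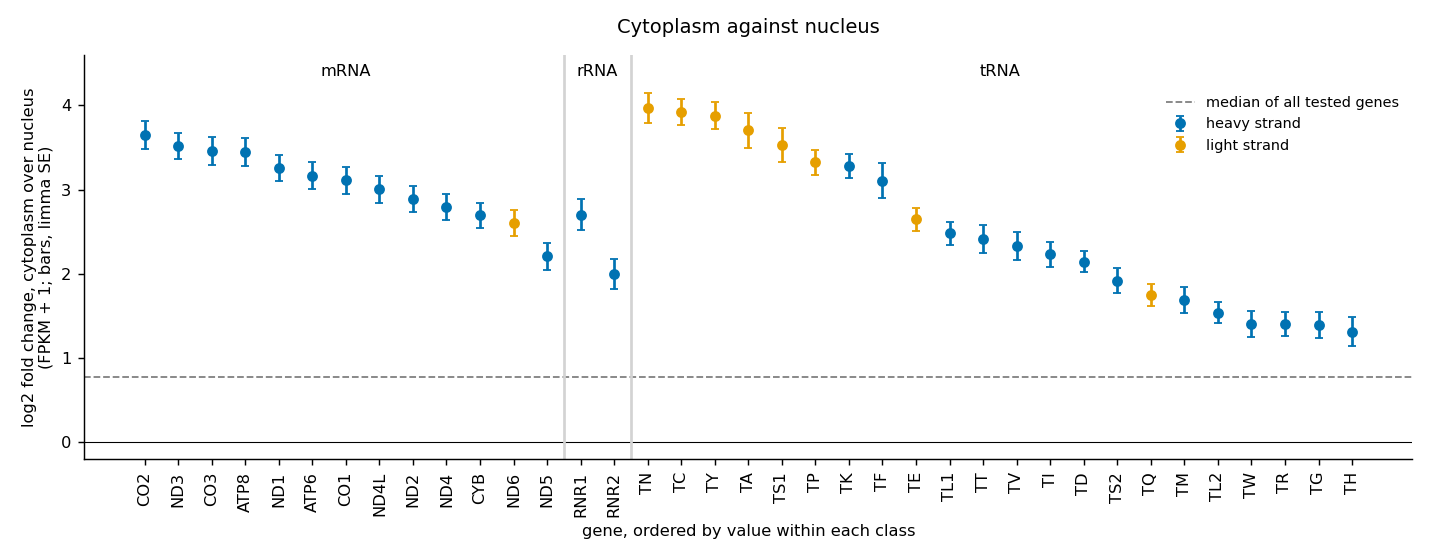
log2 fold change of FPKM + 1, cytoplasm over nucleus, for each mitochondrial gene, ordered within its class; bars are limma standard errors and the dashed line is the median of all tested genes, 0.78. Light-strand tRNAs (orange) occupy the top 6 places among the tRNAs, with MT-TN at 3.97 and MT-TH at 1.32 as the extremes.

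To ask which transcripts departed from the mitochondrial mRNAs rather than from the cell as a whole, each library was divided by the geometric mean FPKM of its 13 mitochondrial mRNAs and fitted again. In this comparison 7 members were higher in the cytoplasm, 16 lower and 14 not called, where 0.0819% of all genes were called higher and 99.0% lower. The tRNAs MT-TN (0.90), MT-TC (0.85), MT-TY (0.81), MT-TA (0.67) and MT-TS1 (0.47), all of the light strand, and the mRNAs MT-CO2 (0.57) and MT-ND3 (0.46) were the higher members, in log2 units. Among the lower were 12 of the 14 heavy-strand tRNAs, from -1.62 for MT-TH to -0.48 for MT-TL1, together with MT-TQ (-0.96). MT-TF, MT-TK, MT-TE and MT-TP were not called. The reference holds the 13 mRNAs themselves, so their own values, MT-CO2 and MT-ND3 included, lie on both sides of 0 by construction. limma took the spread of this fit wholly from the trend over genes. With each gene's own spread MT-TN (adjusted p = 0.0461), MT-TC (0.0124) and MT-TY (0.0165) were still called, while MT-TA (0.193) and MT-TS1 (0.339) were not. Of the 12 lower heavy-strand tRNAs 9 were still called, and MT-TV (0.169), MT-TT (0.0990) and MT-TS2 (0.0757) were not. Over all tested genes the own spread gave 10 higher and 12882 lower. Scaling by the summed FPKM of the mRNAs, instead of their geometric mean, gave 5 members higher and 20 lower (8 and 13337 of all genes). MT-TS1 and MT-ND3 were then no longer higher, and MT-TE, MT-RNR1, MT-ND4 and MT-CYB were called lower. Without nucleus replicate 1 the 7 higher members became 3, namely MT-TN, MT-TC and MT-TY.

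The same contrast can be read from the levels. The geometric mean FPKM of MT-TA, MT-TN, MT-TC and MT-TY was 1.59 ± 0.0278 (SD, n = 2) times that of the 13 mRNAs in the cytoplasm, 0.910 ± 0.0645 times in the nucleus and 0.314 ± 0.0847 times in total-cell RNA. No 2 groups overlapped in this ratio, and total-cell RNA, which should hold both fractions, was lowest. The size of the ratio rests on dividing by the short tRNA lengths. The MALAT1 values given above also set the total-cell libraries apart, and what part any difference in preparation had in the ratio was not tested.

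**Figure D4:**
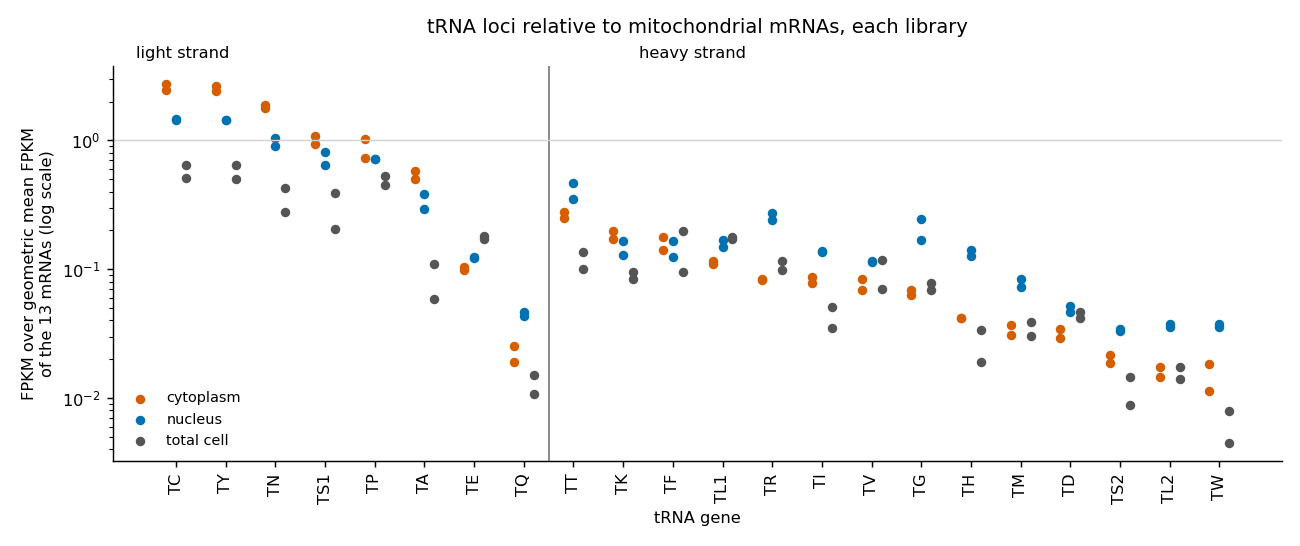
Level of each tRNA gene divided by the geometric mean FPKM of the 13 mitochondrial mRNAs (log axis), 1 point per library, light-strand tRNAs on the left and heavy-strand tRNAs on the right, each ordered by level. For MT-TC, MT-TY, MT-TN and MT-TA the order is cytoplasm, nucleus, total cell, whereas for most heavy-strand tRNAs the nuclear points are the highest.

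The 13 mRNAs encode subunits of respiratory complexes I, III, IV and V. Their median log2 fold change, cytoplasm over nucleus, was 3.11. The cytochrome c oxidase subunits of complex IV were the most abundant and together gave 60.3% of the summed mRNA FPKM in the cytoplasm, 54.3% in the nucleus and 50.1% in total-cell RNA. MT-CO3 had the highest mean, at 2967 and 2584 FPKM in cytoplasmic libraries, 241 and 263 FPKM in nuclear ones and 1688 and 1877 FPKM in total-cell RNA. MT-CO2 had the largest excess among mRNAs, with 2148 and 1665 FPKM, 146 and 154 FPKM and 1636 and 1656 FPKM and a log2 fold change of 3.65 ± 0.17. Cytoplasmic and total-cell libraries did not overlap for MT-CO3 or, narrowly, for MT-CO2. MT-CO1, which encodes the catalytic subunit, had overlapping cytoplasmic and total-cell libraries at 1817 and 1553 FPKM against 1551 and 1703 FPKM, and 183 and 205 FPKM in the nucleus.

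MT-ATP8 and MT-ATP6 encode membrane subunits of ATP synthase, complex V, and overlap by 46 bases on one mRNA. Their mean cytoplasmic levels were 609 ± 101 and 757 ± 136 FPKM (SD, n = 2) and their nuclear levels 54.9 ± 7.74 and 83.0 ± 1.72 FPKM, with log2 fold changes of 3.44 and 3.16. MT-CYB encodes cytochrome b, the only complex III subunit made in mitochondria, and measured 422 and 340 FPKM in cytoplasmic libraries, 57.0 and 58.3 FPKM in nuclear ones and 512 and 507 FPKM in total-cell RNA. Its total-cell libraries lay above both fractions, and its log2 fold change between cytoplasm and nucleus was 2.69 ± 0.15.

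Complex I subunits showed the widest spread among the mRNAs. MT-ND3 had a cytoplasm-to-nucleus log2 fold change of 3.52, MT-ND1 of 3.26, MT-ND4L of 3.003, MT-ND2 of 2.89 and MT-ND4 of 2.80. MT-ND2 had the lowest mean level of the mRNAs, at 214 and 170 FPKM in cytoplasmic libraries, 24.9 and 24.97 FPKM in nuclear ones and 308 and 257 FPKM in total-cell RNA. At the bottom of the range was MT-ND5, the longest of the mRNAs at 1812 bases, with 254 and 202 FPKM, 49.8 and 46.6 FPKM and 378 and 322 FPKM and a log2 fold change of 2.21 ± 0.16. Relative to all 13 mRNAs, MT-ND5 was lower in the cytoplasm by -0.85 (adjusted p = 2.6e-05, and 0.00449 with its own spread). Across the 13 mRNAs the fold change ran against annotated length (Spearman rho = -0.484, Pearson r = -0.599), as a description over genes that share the same 6 libraries and partly the same precursor.

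MT-ND6, the complex I subunit of the light strand, adjoins MT-ND5 end to end on the opposite strand. It measured 280 and 234 FPKM in cytoplasmic libraries, 41.2 and 41.3 FPKM in nuclear ones and 374 and 315 FPKM in total-cell RNA. The order total cell, cytoplasm, nucleus held without overlap, as it did for MT-ND5 and MT-CYB on either side. Its log2 fold change between cytoplasm and nucleus was 2.61 ± 0.15, the second lowest of the mRNAs after MT-ND5. Set against the geometric mean of the 12 heavy-strand mRNAs, MT-ND6 stood at 0.427 ± 0.0112 (SD, n = 2) in the cytoplasm, 0.598 ± 0.0166 in the nucleus and 0.513 ± 0.0507 in total-cell RNA. Cytoplasm and nucleus did not overlap in this ratio (exact permutation p = 0.33, the smallest possible), and relative to all 13 mRNAs MT-ND6 was lower in the cytoplasm by -0.45 (limma, adjusted p = 0.0264, and 0.0136 with its own spread). Set against MT-ND5 alone the order turned, with ratios of 1.13 ± 0.0397 in the cytoplasm, 0.856 ± 0.0414 in the nucleus and 0.982 ± 0.00900 in total-cell RNA. Against MT-CYB alone the cytoplasm stayed below the nucleus, at 0.677 ± 0.0167 and 0.716 ± 0.00983, with 0.676 ± 0.0778 in total-cell RNA. MT-ND6 was thus unlike the light-strand tRNA run, whose members were higher relative to the mRNAs; the difference between the 2 was not tested as such.

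Values of both strands carry a limit from the counting. The kit keeps strand, but the setting used for counting is not given. In 16 pairs of a gene lying wholly within the exons of a well expressed gene on the opposite strand, the inner gene had a median level of 0.504 to 0.651 of its host over the 6 libraries, 8 or 9 of the 16 stood above 0.5 and 2 or 3 below 0.02. AC006064.4, within GAPDH, measured 1.47 to 1.56 times its host, and RPL36P4, within ERGIC3, 0 to 0.0377 times. The pairs thus differed, and the search for them left out mitochondrial genes and inner genes shorter than 200 bases. Without the setting, RNA of MT-ND6 and of the 8 light-strand tRNAs cannot be told apart from RNA read from the other strand at the same positions. The same limit holds for the heavy-strand genes, and so for each ratio between the strands. Nuclear copies of mitochondrial genes are a smaller limit. They summed to 0.405% to 0.629% of the members' FPKM, but MTND2P28 and MTATP6P1 reached 18.2% and 17.0% of the mean level of MT-ND2 and MT-ATP6, whose values are uncertain by reads that such copies share.

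Both mitochondrial rRNAs, the RNAs of the small and large ribosomal subunits, were the most abundant members in all 6 libraries. How far the depletion of ribosomal RNA removed them is not given. MT-RNR1 of the small subunit measured 12740.5 and 11412 FPKM in cytoplasmic libraries, 1989 and 1721 FPKM in nuclear ones and 15670.3 and 16813 FPKM in total-cell RNA. MT-RNR2 of the large subunit measured 15969.9 and 14148 FPKM, 3857 and 3654 FPKM and 23304 and 23418 FPKM. For both the total-cell libraries were highest and the nuclear libraries lowest, without overlap. The log2 fold changes between cytoplasm and nucleus were 2.70 ± 0.18 and 2.001 ± 0.18. The ratio of MT-RNR2 to MT-RNR1 was 1.25 ± 0.00974 (SD, n = 2) in the cytoplasm, 2.03 ± 0.130 in the nucleus and 1.44 ± 0.0667 in total-cell RNA, although both lie on one precursor with only MT-TV, a valine tRNA, between them. Relative to the mRNAs, MT-RNR2 was lower in the cytoplasm by -1.08 (adjusted p = 1.1e-06, and 0.00283 with its own spread), and MT-RNR1, at -0.38, was not called (adjusted p = 0.0856). Scaled by the summed FPKM of the mRNAs instead, MT-RNR1 was called lower, at -0.56.

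Against total-cell RNA the cytoplasm split the classes. Of the 37 members 15 were higher in the cytoplasm, 13 lower and 9 not called, where 28.4% of all tested genes were called higher and 44.3% lower; 15 did not overlap in the upward and 16 in the downward direction (35.4% and 50.7% of all genes). Light-strand tRNAs gave the largest differences, with 7 of 8 higher: MT-TA (2.53), MT-TN (2.21), MT-TC (2.01), MT-TY (1.97), MT-TS1 (1.64), MT-TP (0.65) and MT-TQ (0.55), in log2 units, while MT-TE was lower (-0.97). These 8 calls kept their direction under median scaling and under scaling to the fragments in genes. Of the 14 heavy-strand tRNAs 6 were higher, 4 lower and 4 not called.

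Among the mRNAs MT-CO3 (0.64) and MT-ND3 (0.45) were higher in the cytoplasm than in total-cell RNA. MT-ND4 (-0.69), MT-ND5 (-0.62), MT-ND2 (-0.56), MT-CYB (-0.43), MT-ND6 (-0.42) and MT-ND4L (-0.38) were lower, and the other 5 were not called. These smaller differences depended on scaling: under median scaling 4 mRNAs were higher, only MT-ND4 was lower and neither rRNA was called, where as deposited both rRNAs were lower (-0.43 and -0.64). All tested genes moved the same way, from 3820 higher and 5956 lower to 6343 and 4654, and each gene's own spread gave 3058 and 4784. With each gene's own spread 8 members were higher and 5 lower, among the mRNAs MT-CO3 and MT-ND4, and without cytoplasm replicate 2 the lower members were 6. At the level of single libraries, total-cell RNA lay above all 4 fraction libraries for 16 of the 37 members, as it did for 49.6% of all tested genes, and between the fractions for 15.

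**Figure D5:**
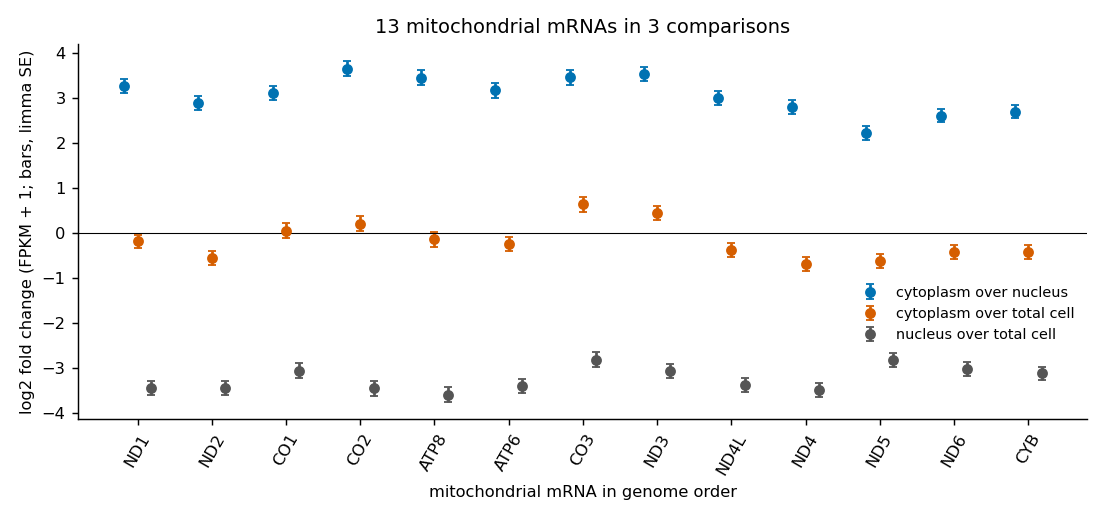
log2 fold change of FPKM + 1 for the 13 mitochondrial mRNAs in genome order in the 3 comparisons, with limma standard errors as bars. Cytoplasm over nucleus lies between 2.21 and 3.65 and nucleus over total cell between -3.59 and -2.82, while cytoplasm over total cell lies on both sides of 0; comparisons that share a group share its libraries.

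Nuclear RNA held less of every mitochondrial transcript than total-cell RNA. All 37 members were called lower, where 92.4% of all tested genes were called lower and 1.60% higher, and none of them overlapped (94.5% of all genes lay lower without overlap, and 2.14% higher). With each gene's own spread 34 were lower, and MT-TW (limma adjusted p = 0.189), MT-TH (0.104) and MT-TA (0.0798) were not called. Over all tested genes the own spread gave 138 higher and 11905 lower. The median log2 fold change was -2.77 over the members and -1.03 over all genes. It was -3.38 for the mRNAs, -2.88 for the rRNAs and -1.89 for the tRNAs. The tRNAs nearest to 0 were MT-TW (-0.49), MT-TH (-0.80) and MT-TA (-1.17). After median scaling 32 members were lower and MT-TW was higher (0.57), and after scaling to the fragments in genes 28 were lower and MT-TW (0.60) and MT-TH (0.50) were higher, so for these tRNAs the direction depends on the scaling. Over all tested genes 5043 were higher and 4424 lower under the first scaling, and 4216 and 5144 under the second. The 13 mRNAs and both rRNAs were lower under either scaling.

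The nuclear genes that make and process these RNAs had smaller median fold changes, near the median of all genes. Of 54 genes for mitochondrial transcription, RNA processing and decay 48 were tested, and 44 were higher in the cytoplasm than in the nucleus and none lower; their median was 0.69 on the log2 scale, against 0.78 for all genes, of which 83.9% were higher. After median scaling 14 were higher and 21 lower, where 5147 of all 13431 tested genes were higher and 4866 lower. SLIRP, which with LRPPRC protects mitochondrial mRNAs, had a cytoplasmic level of 24.3 ± 0.897 FPKM (SD, n = 2) and a nuclear level of 4.71 ± 0.591 FPKM, a log2 fold change of 2.15. HSD17B10, a subunit of mitochondrial RNase P, measured 33.9 ± 3.35 and 7.81 ± 0.602 FPKM (1.99). The helicase DHX30 and TBRG4, a FASTK family protein, were next by mean level but lay below the list's median fold change, at 0.58 and 0.51, and turned to -0.19 and -0.26 under median scaling. Of 19 synthetases that charge mitochondrial tRNAs 18 were tested, 16 were higher and none lower, with a median of 0.84, and after median scaling 8 were higher and 4 lower. KARS1 for lysine, at 28.8 ± 1.94 FPKM against 7.38 ± 0.699 FPKM (1.83), and GARS1 for glycine, at 23.5 ± 0.664 and 7.06 ± 1.20 FPKM (1.61), had the highest levels and also serve cytosolic tRNAs. RARS2 for arginine and CARS2 for cysteine, which act in mitochondria, were next by mean level, at 1.47 and 1.03.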

How the data were processed

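The authors deposited one table of FPKM for the 6 libraries, per the file headers. Tools listed in the submitters' processing notes, without roles, are featureCounts 2.0.1, SAMtools 1.9, HISAT2 2.1.0, Bowtie and Trimmomatic 0.39, with the genome named as hg38 and GRCh38. For the strand setting, the annotation release and the treatment of shared reads the sources used here give nothing. Cytoplasmic and nuclear values carry 6 significant digits and total-cell values 15, so whether all libraries were processed alike is not known.

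FPKM times the exon length in GENCODE v29 (54882 of 59609 symbols matched, 4727 not) rose in steps common to a library, read as 1 fragment, which gave the depths. Of values under 1000 fragments 31.8% to 43.1% were whole within 0.02 and 9.92% to 11.1% ended in 0.5 of a fragment, so reads had been divided between genes and no count test was run. Fragment numbers per gene are therefore estimates.

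Genes with a mean of at least 1 FPKM (13431, among them all 37 members) were tested as log2(FPKM + 1) in limma 3.58.1 under R 4.3.3, with trend. One model held the 3 fractions over 6 libraries (3 residual degrees of freedom). The spread that limma took from the trend over genes counted for 19.57 prior degrees of freedom. Adjustment of p-values was by Benjamini-Hochberg over all tested genes, with calls at 0.05. The pseudocount makes fold changes of low tRNAs and other low genes too small. Coordinates and sequences are those of GENCODE v29 (GRCh38). Members with values in every library were named by class and by highest and lowest level and fold change, and other genes by level and fold change in their list. The members were taken by symbol alone, but this gene group and the lists were chosen with earlier results of these data known. Alternatives were the pseudocount, the filter, the scaling, the spread, the replicate block, the libraries fitted and each library left out.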

Additional observations from a re-analysis of the deposited data

How the results depend on the processing

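Between cytoplasm and nucleus all 37 members were called higher under each alternative but 1, scaling to the fragments in genes, which was chosen after seeing the data and called 33. All-gene counts moved more: the 412 lower genes became 235 with each gene's own spread, 4866 after median scaling and 5114 after scaling to the fragments in genes.

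Replicate numbers did not pair the cytoplasmic libraries with the nuclear (correlation of deviations -0.126) or total-cell ones (0.0594). Between nucleus and total cell the correlation was 0.307, and whether those libraries were paired is not known. A replicate block left 37 members higher between cytoplasm and nucleus (11331 higher and 447 lower of all 13431 tested genes). It left 37 members lower between nucleus and total cell (225 higher and 12434 lower of all genes). Between cytoplasm and total cell it gave 15 members higher and 14 lower (3864 and 6037 of all genes). Relative to the mRNAs it gave 11 members higher and 19 lower (15 and 13248 of all genes). With the numbers crossed between cytoplasm and nucleus, 37 members were higher and 0 lower (11659 and 546 of all genes). The crossed numbers and the own spread relative to the mRNAs were also chosen after seeing the data. Causes of the changes below were not tested.

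Between cytoplasm and total cell the members lower were 8 without a filter, where 4362 of 46983 genes were higher and 18619 lower. They were 4 after median scaling and 5 with each gene's own spread, which left 8 members higher. With 1 library left out, 13 to 16 were higher and 6 to 13 lower, and 6 came without cytoplasm replicate 2. Between nucleus and total cell 1 member was higher after median scaling and 2 after scaling to the fragments in genes. Without a filter 35 members were lower (MT-TW and MT-TH not called), where 265 of 46983 genes were higher and 28373 lower. With each gene's own spread 34 members were lower. Relative to the mRNAs, leaving out 1 library gave 3 to 8 higher, 3 without nucleus replicate 1, and 14 to 16 lower.

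Differences in share of mitochondrial FPKM, cytoplasm minus nucleus, were 8.09 to 9.73 percentage points for mRNAs, 6.02 to 7.22 for tRNAs and -16.9 to -14.1 for rRNAs with 1 library left out. By fragments they were 0.515 for tRNAs and -9.28 for rRNAs, since tRNA genes are short. The light to heavy tRNA ratio differed by 7.19 to 8.38, and by 9.46 without the overlapping pair MT-TI and MT-TQ. The MT-ND6 ratio differed by -0.183 to -0.160.

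Some log2 fold changes reversed. Cytoplasm over total cell, median scaling gave 0.098 for MT-ND1, 0.079 for MT-TM, 0.142 for MT-ATP8, 0.047 for MT-ATP6 and 0.145 for MT-TL2 (limma adjusted p = 0.0240). With 1 library left out, MT-TF ran from -0.466 (adjusted p = 0.0125, without total-cell replicate 1) to 0.519, MT-TM from -0.483 to 0.0648, MT-CO1 from -0.0652 to 0.161 and MT-ATP8 from -0.316 to 0.0229. Nucleus over total cell, MT-TW became 0.572 and MT-TH 0.266 under median scaling, and MT-TW 0.596, MT-TH 0.503 and MT-TA 0.189 under scaling to the fragments in genes. Relative to the mRNAs, scaling by their summed FPKM gave -0.022 for MT-TF, -0.145 for MT-CO1 and -0.082 for MT-ATP6, and with 1 library left out MT-TF ran from -0.0533 to 0.358 and MT-CO1 from -0.0193 to 0.0839. Depth limits the lowest tRNAs, since MT-TW had 6.92 fragments in total-cell replicate 1.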

Other observations

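Many tRNAs were lower in total-cell replicate 1 than in replicate 2. The log2 ratio of replicate 1 to replicate 2 had a median of -0.35 over the 22 tRNAs, from -0.997 to 0.01, and a median of 0.03 over the 13 mRNAs, from -0.15 to 0.26. MT-TF, for phenylalanine, was at the low end with 62.0 and 124 FPKM, and MT-TL1, a leucine tRNA, was at the high end with 111 and 110 FPKM. In the cytoplasm the same ratio had a median of 0.33 over the mRNAs, from 0.20 to 0.37, and 0.15 over the tRNAs, from -0.38 to 0.58. In the nucleus the medians were -0.04 and -0.13. The difference between the classes was not tested.

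The order of levels was much the same in all fractions, as a description across genes of the same libraries. Over the 22 tRNAs the Spearman rho of mean FPKM was 0.941 between cytoplasm and nucleus and 0.855 between nucleus and total cell, and over the 13 mRNAs it was 0.874 and 0.923. Members that were high in the cytoplasm also had the larger excess over the nucleus, with a rho of 0.863 over the tRNAs and 0.775 over the mRNAs between cytoplasmic level and log2 fold change, which share the cytoplasmic values.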
